A study of Mus musculus with 8 samples.

Results

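The 30 genes described here are 20 chemokine ligands and 10 receptors, atypical receptors or receptor-like genes. They were taken by symbol from a table of 40838 rows, and all 30 were found. Whole liver RNA was sequenced from 8 C57BL/6 samples, 4 of a group given an adeno-associated virus carrying Lpcat3 (AAV-TBG-Lpcat3, here Lpcat3) and 4 of a group given AAV-TBG-eGFP, which carries a green fluorescent protein (here eGFP). All mice ate a NASH diet (nonalcoholic steatohepatitis) for 16 weeks, 7 before and 9 after the injection, so no group is free of disease or of virus. The TBG promoter is a hepatocyte promoter, and Lpcat3 encodes an enzyme that puts polyunsaturated fatty acids into membrane phospholipids. The question for these genes is whether raised hepatocyte Lpcat3 changes the RNA of the chemokine system in established steatohepatitis. Whether the samples were separate animals is not stated in the labels, nor are age and sex. The p-values therefore measure only the spread between these samples.

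Chemokines are small secreted proteins that guide leukocytes, and they act through membrane receptors coupled to G proteins. Atypical receptors bind the same ligands without G-protein signalling and remove or present them. In fatty liver with inflammation, hepatocytes, resident Kupffer cells, endothelium and infiltrating leukocytes are all known sources, and the CCL2-CCR2 axis is best known for bringing monocytes into the liver.

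Libraries held 22433625 to 25651874 counts. Levels are CPM, the usual depth-scaled unit, with library totals scaled by TMM (trimmed mean of M-values). Lpcat3 itself was at 274 to 465 CPM in the Lpcat3 libraries, against 132 to 173 CPM in the eGFP libraries, with no overlap (log2 fold change 1.25; edgeR adjusted p = 0.164). The 5 hepatocyte markers together were at 48800 to 74200 CPM in Lpcat3 and 37900 to 64600 CPM in eGFP libraries, with none at 0. Lpcat3 replicate 3 and eGFP replicate 3 stood at opposite ends of the first principal component over all tested genes (51.0 and -46.1). This component held 40.9% of the variance, so many results are also given without either or both of these libraries. Sample titles hold 1290, 1317, 1344 or 1345 as a code, and what these stand for is not explained. Codes 1290 and 1317 hold 1 Lpcat3 and 3 eGFP libraries and codes 1344 and 1345 hold 3 Lpcat3 and 1 eGFP library, so differences within each division are given as well.

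The upstream sequences of 4 ligand genes are shown first because NF-kB and interferon-activated factors are the classic inducers of inflammatory chemokines, and because these are the members whose window held a searched motif. Of the 30 genes, 23 had an entry in the RefSeq promoter table (GRCm38.p6, not the authors' build), and the 250 bases before the start were searched on both strands. Capitals mark matches to a form of the NF-kB site (GGGA, any 2 bases, TTCC) or to a form of the interferon response element (GAAA, any 2 bases, GAAA). In the Cxcl1 and Cxcl2 windows the NF-kB form matched on both strands, 1 base apart, so the capitals there cover 2 overlapping matches. In the Cxcl10 window the first capital run is the interferon form and the second the NF-kB form, and in the Cxcl14 window the run is the interferon form.
Cxcl1 (chr5:90891125-90891224, plus strand): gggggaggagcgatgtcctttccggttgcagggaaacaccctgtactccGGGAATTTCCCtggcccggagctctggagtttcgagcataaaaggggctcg
Cxcl2 (chr5:90903753-90903852, plus strand): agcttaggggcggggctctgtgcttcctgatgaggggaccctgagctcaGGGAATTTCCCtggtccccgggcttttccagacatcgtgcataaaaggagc
Cxcl10 (chr5:92349020-92349119, minus strand): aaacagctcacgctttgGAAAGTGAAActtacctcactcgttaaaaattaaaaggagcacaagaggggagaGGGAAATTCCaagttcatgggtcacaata
Cxcl14 (chr13:56296692-56296751, minus strand): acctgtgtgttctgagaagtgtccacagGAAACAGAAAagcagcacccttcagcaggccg
The NF-kB form stood in 3 of the 23 member genes, which are Cxcl1, Cxcl2 and Cxcl10, and in 1.36% of the 27025 genes of the table. The interferon form stood in 2 of 23, Cxcl10 and Cxcl14, and in 3.46% of all genes. The neutrophil attractants Cxcl1 and Cxcl2 share the capital run exactly, and their windows were placed so that it starts at the same position in both. With this placement and no gaps, 45.0% of the 100 bases printed for each are identical position by position, the run included. The value depends on the placement. A match describes letters and not bound protein.

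Per kilobase of exon (GENCODE M21 exon lengths), Cxcl12 had the highest level of the 30 genes. It was at 41.0 CPM per kb in Lpcat3 livers and 32.9 CPM per kb in eGFP livers. The macrophage ligands followed, with Ccl6 at 10.4 CPM per kb in Lpcat3 and 19.9 CPM per kb in eGFP livers and Ccl9 at 12.1 CPM per kb in Lpcat3 and 14.4 CPM per kb in eGFP livers. Among the receptor genes Ackr4, an atypical receptor for CCL19, CCL21 and CCL25, was the highest, at 4.45 CPM per kb in Lpcat3 and 4.39 CPM per kb in eGFP livers. Its exons overlap those of Acad11 on the opposite strand, and strand handling is not known, so this rank is uncertain. Ccl8 was the lowest, at 0.0873 CPM per kb in Lpcat3 and 0.149 CPM per kb in eGFP livers. Averaged over the 8 libraries, 20 genes were at 1 CPM or more and 10 were below it, namely Ccl3, Ccl4, Ccl5, Ccl7, Ccl8, Cxcl2, Cxcl13, Ccr1, Ccr7 and Cxcr3. Their differences rest on few reads.

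**Figure D1:**
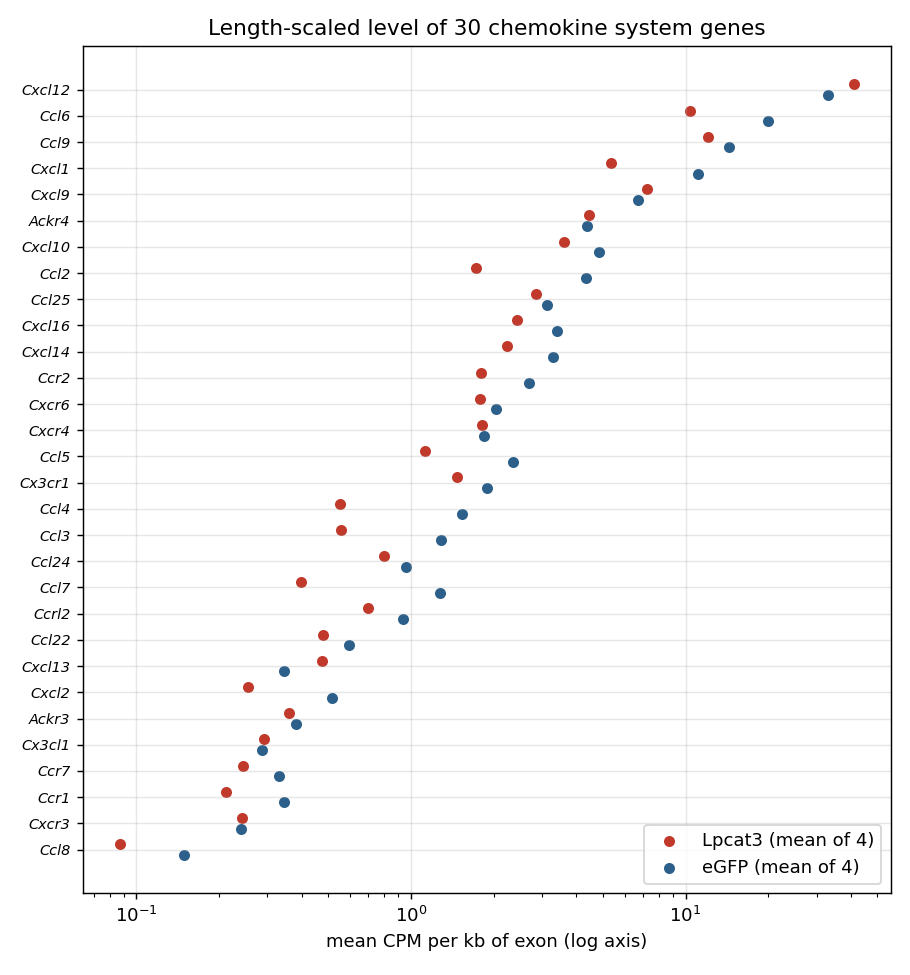
Mean CPM per kb of exon of the 30 genes in Lpcat3 (red) and eGFP (blue) livers, on a log axis, ordered by the mean of all 8 libraries. Cxcl12 stands at the top, at 41.0 and 32.9 CPM per kb, and Ccl8 at the bottom, at 0.0873 and 0.149 CPM per kb.

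Most of the 30 genes had a lower mean in Lpcat3 livers, but no member passed the test across all genes and no member separated the groups. The difference of group means of log2 CPM was below 0 for 25 of 30 members, with a median of -0.39, against 51.3% of the 17438 tested genes and a median of -0.01. By the sign of the edgeR log2 fold change, 23 tested members were lower and 4 higher, beside 51.5% and 48.5% of all tested genes. The signs of Cxcl9 and Cxcr4 differ between these measures (edgeR 0.11 and -0.03, difference of means -0.06 and 0.03). In edgeR's quasi-likelihood test 0 members were called at an adjusted p under 0.05 in either direction. Over all genes 0.00573% were called higher and 0.0% lower. Adjusted p-values of the 27 members that passed the filter on low counts ran from 0.564 to 0.977. At an unadjusted p under 0.05, 6 tested members were lower and 0 higher, where 5.18% of all tested genes were lower and 3.3% higher. The 6 lower members became 2 without eGFP replicate 3 (3.22% of all genes), 3 without Lpcat3 replicate 3 (3.42%) and 11 without eGFP replicate 2 (5.27%). Without both libraries numbered 3 the count was 1 (2.88% of all genes). With a term for code division 1 member was lower at this level (2.41% of all genes), and with a term for each code 0 were (1.61%). DESeq2 also called 0 members, against 0.12% of all genes lower and 0.155% higher, and limma-voom called 0. In 0 of the 30 members did every Lpcat3 library lie below every eGFP library, or above, while 2.23% and 1.93% of all tested genes separated in these directions. Ccl8, Cxcl13 and Cxcr3 did not pass the filter. In whole liver RNA, fewer cells of a type and less RNA per cell cannot be told apart.

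The libraries behind this direction were uneven. eGFP replicate 3 held the highest CPM for 19 of the 27 tested members, against 22.4% of all tested genes, and Lpcat3 replicate 3 held the lowest for 14, against 20.8%. Without eGFP replicate 3 the members' median log2 difference was -0.23, with 23 of 30 below 0 (51.0% of all tested genes). Without both libraries numbered 3 it was -0.15, with 20 below 0 (50.5%). Within codes 1290 and 1317 it was -0.26, with 23 below 0 (51.5%). Within codes 1344 and 1345 it was -0.11, with 18 below 0 (51.8%). Of the 30 members, 16 were below 0 within both divisions, a count for which the share of all genes was not computed. With a term for each code the median log2 difference of the 30 members was -0.07. In the edgeR fit with that term 15 of 27 tested members were negative, close to the 52.3% of all genes. That fit compares the groups only within codes 1290 and 1345, which hold both. Codes 1317 and 1344 each hold a single group, so their libraries, among them both numbered 3, do not bear on it.

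**Figure D2:**
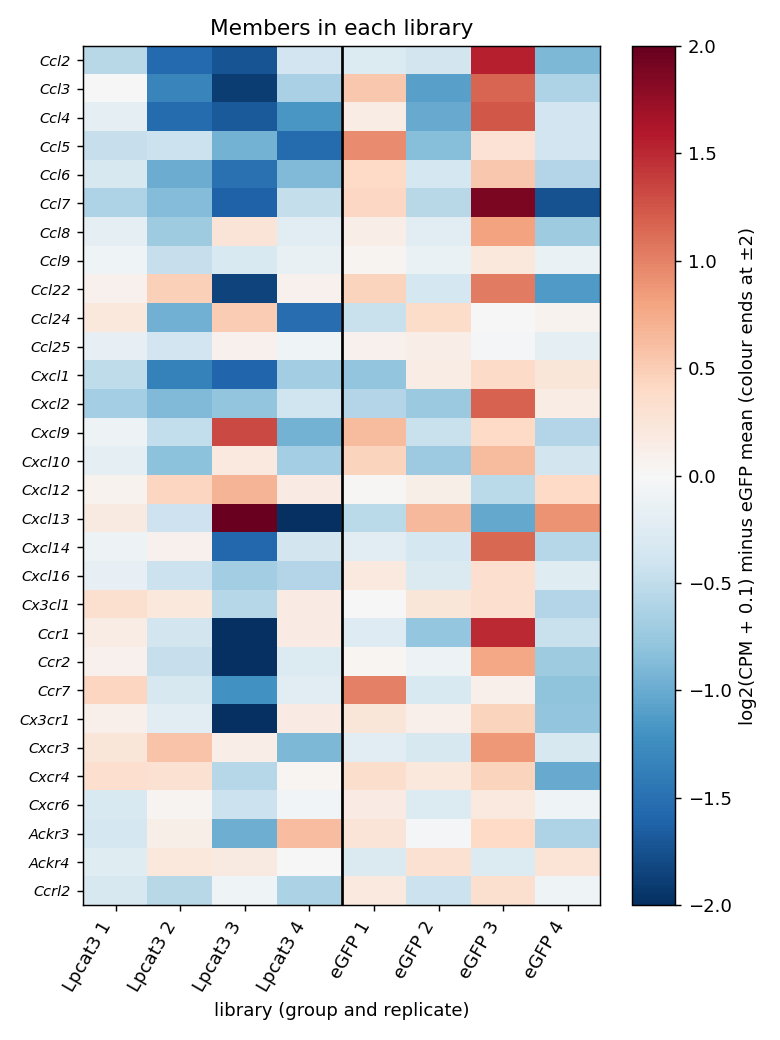
log2(CPM + 0.1) of each of the 30 genes minus its eGFP mean, in each library, with Lpcat3 libraries left of the black line and eGFP libraries right of it. The column of eGFP replicate 3 is mostly red and that of Lpcat3 replicate 3 mostly blue, with Cxcl9, Cxcl12 and Cxcl13 among the genes that are red there.

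Among the 11 CC ligands, all 11 had a lower mean log2 CPM in Lpcat3 livers, beside 51.3% of all tested genes. Their median difference was -0.86, with a range of -1.18 to -0.13. Without both libraries numbered 3 the differences ran from -0.77 (Ccl24) to 0.57 (Ccl22), with only Ccl22 above 0. Within codes 1344 and 1345 they were above 0 for Ccl7 (0.8), Ccl22 (0.72), Ccl8 (0.56) and Ccl25 (0.08), and below 0 for the rest. Ccl6 and Ccl9 are ligands of CCR1 made mainly by macrophages and other myeloid cells. Ccl6 was at 21.9, 13.7, 9.58 and 14.8 CPM in Lpcat3 replicates 1 to 4, against 35.8, 21.3, 39.8 and 18.1 CPM in eGFP replicates 1 to 4. Only the highest Lpcat3 library reached into the eGFP range, and eGFP replicates 1 and 3 were far above the rest. Its log2 fold change was -0.94 (SE 0.31; unadjusted p = 0.0133, edgeR adjusted p = 0.564). It was -0.74 without eGFP replicate 3 and -0.58 without both libraries numbered 3. Codes 1290 and 1317 alone gave -0.51 as the difference of mean log2 CPM, and codes 1344 and 1345 gave -0.53. Ccl9 was at 40.5, 31.2, 35.1 and 38.9 CPM in Lpcat3, against 45.0, 39.5, 49.9 and 39.2 CPM in eGFP livers. Only Lpcat3 replicate 1 reached above the lowest eGFP libraries, and the log2 fold change was -0.25 (SE 0.11; edgeR adjusted p = 0.581).

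Ccl2, the chief attractant of CCR2-bearing monocytes, was at 1.85, 0.883, 0.766 and 2.11 CPM in Lpcat3, against 2.28, 2.12, 8.34 and 1.44 CPM in eGFP livers. The eGFP mean was set by replicate 3, and the other 3 eGFP libraries lay close to the upper Lpcat3 libraries. The log2 fold change came to -1.33 (SE 0.59; edgeR adjusted p = 0.59), and -0.46 without eGFP replicate 3. Ccl7, another CCR2 ligand from the same cluster on chromosome 11, ranged from 0.144 to 0.437 CPM in Lpcat3 and from 0.124 to 2.67 CPM in eGFP livers (log2 fold change -1.67, SE 0.81). eGFP replicates 3 and 4 held its highest and lowest values, and without replicate 3 the log2 fold change was -0.57.

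The inflammatory ligands Ccl3, Ccl4 and Ccl5 were all scarce. Ccl3 ranged from 0.144 to 0.817 CPM in Lpcat3 and from 0.326 to 1.93 CPM in eGFP livers (log2 fold change -1.21, SE 0.63). Ccl4 ranged from 0.192 to 0.731 CPM in Lpcat3 and from 0.367 to 2.11 CPM in eGFP livers (-1.46, SE 0.61; unadjusted p = 0.039). Ccl5, made by T and NK cells among others, ranged from 0.318 to 0.794 CPM in Lpcat3 and from 0.571 to 2.24 CPM in eGFP livers (-1.06, SE 0.46; unadjusted p = 0.0441). edgeR adjusted p-values were 0.625, 0.581 and 0.587 in that order of genes, and each pair of ranges overlapped. Without eGFP replicate 3 the log2 fold changes were -0.66 for Ccl3, -0.8 for Ccl4 and -1.01 for Ccl5, and Ccl5 was at -0.62 without eGFP replicate 1. Ccl3 and Ccl4 had 3 to 19 and 4 to 17 reads per Lpcat3 library.

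The other CC ligands differed little or rested on single libraries. Ccl22, a dendritic cell and macrophage ligand of CCR4, ranged from 0.24 to 1.59 CPM in Lpcat3 and from 0.454 to 2.41 CPM in eGFP livers, with a log2 fold change of -0.32 (SE 0.57) that was 0.14 without eGFP replicate 3. Ccl24, an eosinophil attractant, ranged from 0.358 to 1.77 CPM in Lpcat3 and from 0.863 to 1.59 CPM in eGFP livers (-0.28, SE 0.45), and was 0.01 without Lpcat3 replicate 4. Ccl25, the CCR9 ligand best known in thymus and gut, was steady at 3.71 to 5.17 CPM in Lpcat3 and 4.21 to 5.35 CPM in eGFP livers (-0.13, SE 0.14). Ccl8 had 0 to 2 reads per Lpcat3 library and 0 to 5 per eGFP library, too few to compare.

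Of 8 CXC ligands, 7 had a lower mean log2 CPM in Lpcat3 livers (51.3% of all tested genes), with a median difference of -0.42. This count includes Cxcl9 (-0.06), at 0.11 in edgeR, and Cxcl13 (-0.12), which averaged 0.547 CPM in Lpcat3 and 0.395 CPM in eGFP livers and was at 0.44 in the fit with no filter. Cxcl1, which attracts neutrophils through CXCR2, had the smallest p-value of the members. It was at 7.05, 3.88, 3.31 and 6.16 CPM in Lpcat3, against 5.81, 11.2, 13.2 and 12.0 CPM in eGFP livers. eGFP replicates 2, 3 and 4 all lay above every Lpcat3 library, and eGFP replicate 1 lay among them. Its log2 fold change was -1.04 (SE 0.3; unadjusted p = 0.00724, edgeR adjusted p = 0.564), and -0.92 without eGFP replicate 3. Codes 1290 and 1317 alone gave a log2 difference of -0.43, and codes 1344 and 1345 gave -1.47. Over 19 alternatives it stayed between -1.24 and -0.57, and the lowest adjusted p was 0.121, in DESeq2. Cxcl2, its relative with the same capital run upstream, ranged from 0.397 to 0.596 CPM in Lpcat3 and from 0.449 to 1.97 CPM in eGFP livers. The edgeR estimate for Cxcl2 was -1.01 on the log2 scale (SE 0.48; edgeR adjusted p = 0.601), and -0.38 without eGFP replicate 3. Cxcl1 and Cxcl2 are similar in sequence, and how reads that fit both were counted is not stated in the labels.

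Cxcl9 and Cxcl10 are interferon-induced ligands of CXCR3, the receptor of activated T and NK cells. Cxcl9 was at 16.8, 12.8, 45.1 and 9.34 CPM in Lpcat3, against 28.1, 13.3, 23.8 and 12.0 CPM in eGFP livers. Lpcat3 replicate 3 was the highest of all, although that library was the lowest for many other members. The log2 fold change was 0.11 (SE 0.49; edgeR adjusted p = 0.949), and -0.58 without that library. It was also below 0 without eGFP replicate 2 (-0.03) or 4 (-0.06) and with library totals (-0.07). Cxcl10 was at 5.98, 3.84, 7.86 and 4.25 CPM in Lpcat3, against 9.38, 4.12, 10.7 and 5.32 CPM in eGFP livers. The groups overlapped widely, and the log2 fold change stood at -0.44 with an SE of 0.34 (edgeR adjusted p = 0.69). It was -0.2 without eGFP replicate 3 and -0.42 without both libraries numbered 3. Cxcr3 itself was at 0.473, 0.618, 0.431 and 0.159 CPM in Lpcat3, against 0.314, 0.286, 0.779 and 0.289 CPM in eGFP livers, from 4 to 21 reads per library. No order between the groups was seen at this depth.

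Cxcl12 is a homeostatic ligand made by stroma and endothelium that signals through CXCR4 and is also bound by the scavenger ACKR3. It was at 241, 308, 367 and 258 CPM in Lpcat3, against 233, 249, 157 and 302 CPM in eGFP livers. eGFP replicate 3 was the lowest and Lpcat3 replicate 3 the highest, the reverse of their order for most members. The log2 fold change was 0.32 (SE 0.2; edgeR adjusted p = 0.654), the highest among tested members. It was 0.17 without eGFP replicate 3 and 0.04 without both libraries numbered 3. The difference of mean log2 CPM was 0.21 within codes 1290 and 1317 and 0.03 within codes 1344 and 1345. Cxcr4 was at 3.96, 3.84, 2.06 and 3.18 CPM in Lpcat3, against 4.0, 3.59, 4.26 and 1.49 CPM in eGFP livers. Its log2 fold change was -0.03 (SE 0.32), and its sign turned on leaving out any of Lpcat3 replicate 3 (0.13), eGFP replicate 1 (0.07), 2 (just above 0) or 3 (0.11). Ackr3 was at 0.86, 1.24, 0.527 and 1.79 CPM in Lpcat3, against 1.37, 1.1, 1.52 and 0.701 CPM in eGFP livers. The ranges covered each other (log2 fold change -0.08, SE 0.37), and the sign turned without Lpcat3 replicate 1 (0.02) or 3 (0.14), or eGFP replicate 1 (just above 0) or 3 (0.07).

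Cxcl16, a membrane-bound ligand of macrophages and endothelium, and its receptor Cxcr6 on T and NKT cells form a further axis. Cxcl16 was at 8.08, 6.66, 5.51 and 6.0 CPM in Lpcat3, against 10.4, 7.34, 11.4 and 7.63 CPM in eGFP livers. Only Lpcat3 replicate 1 reached above the lowest eGFP libraries. Its log2 fold change was -0.49 (SE 0.18; unadjusted p = 0.0216, edgeR adjusted p = 0.569), with -0.24 within codes 1290 and 1317 and -0.33 within 1344 and 1345. The fold change was -0.37 without eGFP replicate 3 and -0.29 without both libraries numbered 3. Cxcr6 was at 3.14, 4.06, 2.87 and 3.74 CPM in Lpcat3, against 4.36, 3.22, 4.49 and 3.67 CPM in eGFP livers. The groups overlapped, and the log2 fold change stood at -0.19 with an SE of 0.17 (edgeR adjusted p = 0.725).

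Cxcl14, an epithelial and stromal ligand, was at 4.9, 5.65, 1.72 and 4.09 CPM in Lpcat3, against 4.55, 4.12, 11.8 and 3.51 CPM in eGFP livers. Apart from the libraries numbered 3, all values lay between 3.51 and 5.65 CPM. The log2 fold change was -0.55 (SE 0.45; edgeR adjusted p = 0.706), and 0.01 without eGFP replicate 3. Cxcl13, which draws B cells through CXCR5, ranged from 0 to 1.58 CPM in Lpcat3 and from 0.111 to 0.701 CPM in eGFP livers, with both extremes in Lpcat3 libraries (33 reads in replicate 3 and 0 in replicate 4).

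**Figure D3:**
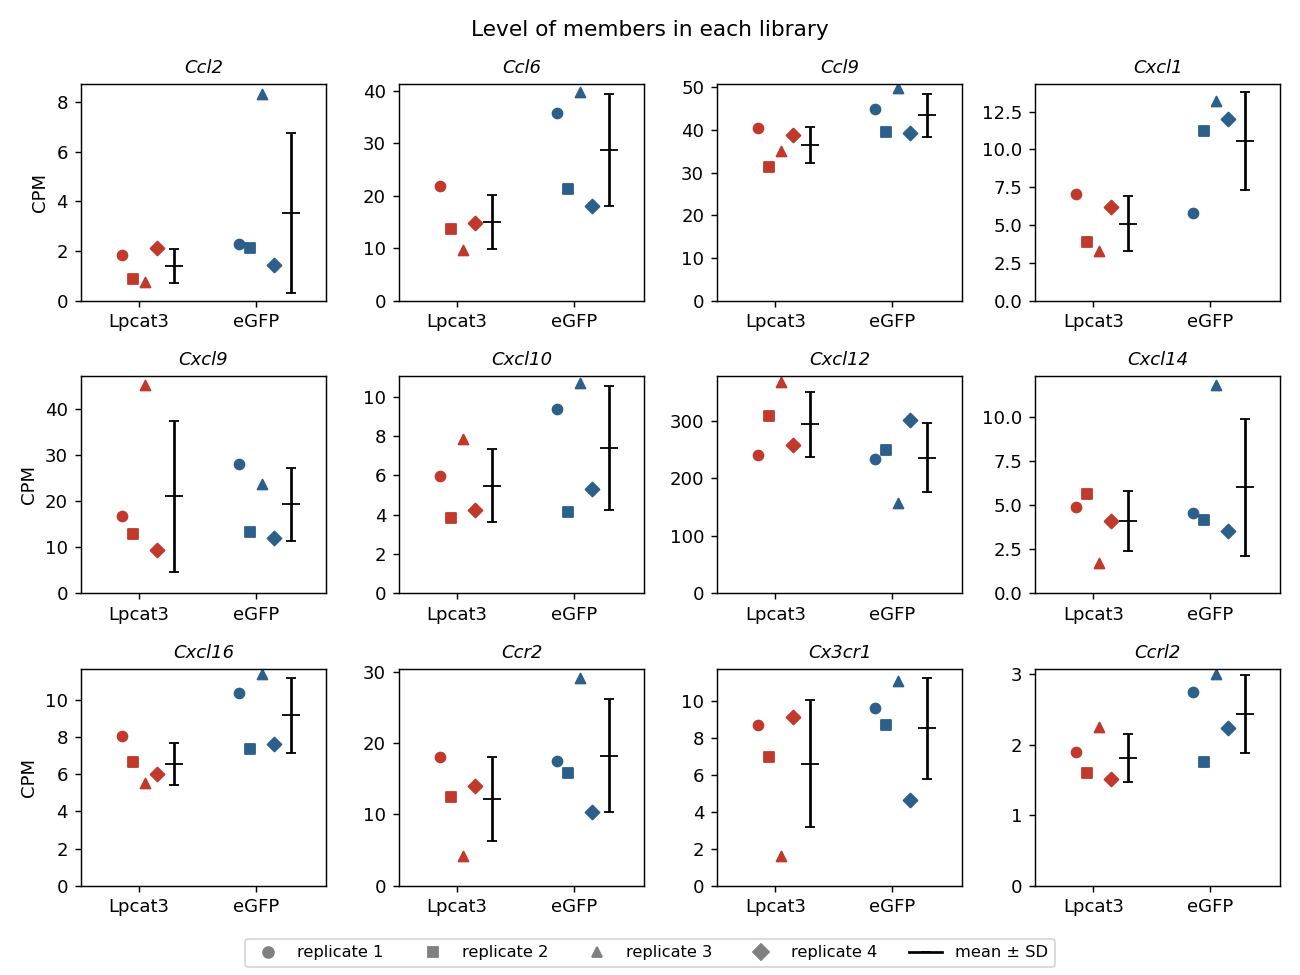
CPM of 12 members in each Lpcat3 (left, red) and eGFP (right, blue) library, with a symbol for each replicate number and the mean ± SD (n = 4) in black. eGFP replicate 3 (triangle) is highest for Ccl2 at 8.34 CPM and Cxcl14 at 11.8 CPM, and Lpcat3 replicate 3 is highest for Cxcl9 at 45.1 CPM.

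Of the 10 receptor and receptor-like genes, 7 had a lower mean log2 CPM in Lpcat3 livers (51.3% of all tested genes), with a median difference of -0.27. Ccr2 marks recruited monocytes. It was at 18.1, 12.4, 4.17 and 14.0 CPM in Lpcat3, against 17.5, 15.8, 29.2 and 10.4 CPM in eGFP livers. Apart from the libraries numbered 3, the groups lay in the same range of 10.4 to 18.1 CPM. The log2 fold change was -0.58 (SE 0.42; edgeR adjusted p = 0.672), -0.25 without eGFP replicate 3 and 0.03 without both libraries numbered 3. Cx3cr1, the fractalkine receptor of monocytes and some liver macrophages, was at 8.73, 6.97, 1.63 and 9.14 CPM in Lpcat3, against 9.65, 8.69, 11.1 and 4.66 CPM in eGFP livers. Lpcat3 replicate 3 stood apart, and the log2 fold change was -0.36 with it (SE 0.45, edgeR adjusted p = 0.807) and -0.04 without it. Its ligand Cx3cl1 was at 1.25, 1.15, 0.623 and 1.11 CPM in Lpcat3, against 0.981, 1.18, 1.26 and 0.619 CPM in eGFP livers. The low library of each group was almost equal, and the log2 fold change was 0.03 (SE 0.29), which turned to -0.07 without Lpcat3 replicate 1, -0.02 without Lpcat3 replicate 2, just under 0 without Lpcat3 replicate 4 and -0.14 without eGFP replicate 4.

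Ccr1, the receptor of Ccl6 and Ccl9, ranged from 0.0958 to 0.874 CPM in Lpcat3 and from 0.408 to 2.34 CPM in eGFP livers. The fitted log2 fold change was -0.69 (SE 0.67), and 0.22 without eGFP replicate 3. Ccr7, the lymph node homing receptor, ranged from 0.192 to 0.817 CPM in Lpcat3 and from 0.289 to 1.26 CPM in eGFP livers (-0.44, SE 0.51), and was 0.08 without eGFP replicate 1. Among the atypical and receptor-like genes, Ackr4 ranged from 10.8 to 14.8 CPM in Lpcat3 and from 10.4 to 15.8 CPM in eGFP livers. Its log2 fold change of 0.02 (SE 0.17) was the closest to 0 of the tested members and turned to -0.09 with library totals, to -0.04 and -0.03 without Lpcat3 replicate 2 or 3, and to -0.07 without eGFP replicate 1 or 3. Ccrl2, which binds chemerin and presents it to its receptor CMKLR1, was at 1.89, 1.59, 2.25 and 1.51 CPM in Lpcat3, against 2.75, 1.75, 3.0 and 2.23 CPM in eGFP livers. Lpcat3 libraries filled the lower part of the range (log2 fold change -0.43, SE 0.22; edgeR adjusted p = 0.611).

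**Figure D4:**
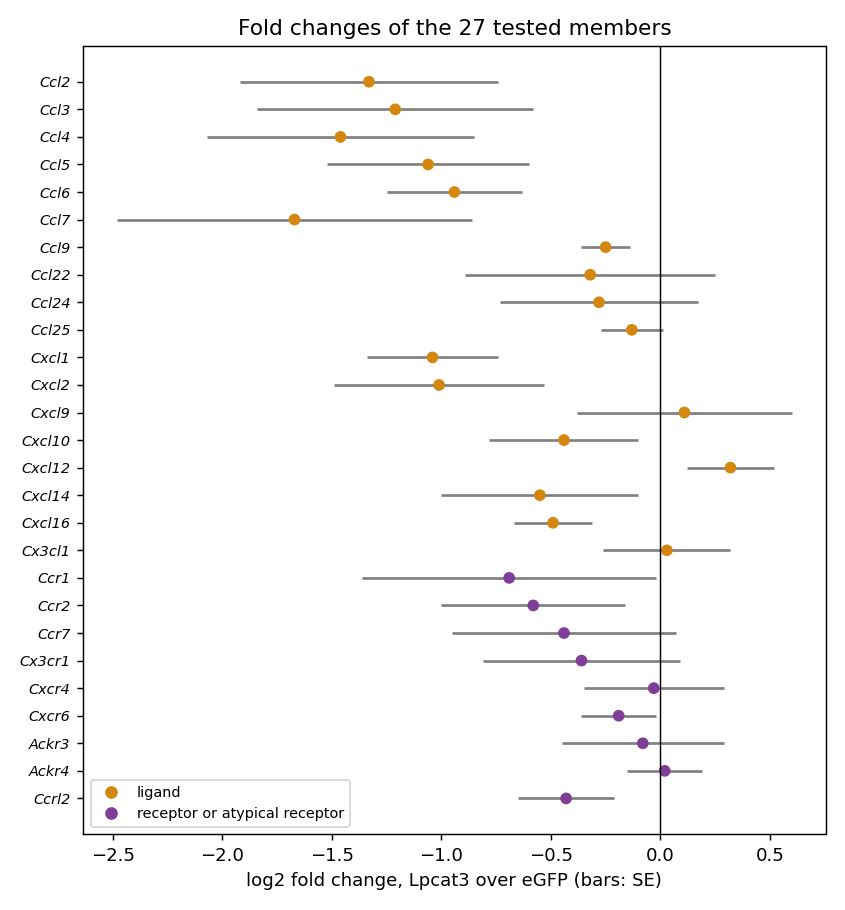
edgeR log2 fold change (Lpcat3 over eGFP) of the 27 tested members with its SE, ligands in orange and receptors or atypical receptors in purple. Values run from -1.67 (Ccl7) to 0.32 (Cxcl12), and scarce ligands such as Ccl7 (SE 0.81) have wide bars while Ccl9 (SE 0.11) has a narrow one.

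No list of cell type markers separated the groups by a test, and their values stand here beside the ligands. All 8 macrophage markers had a lower mean log2 CPM in Lpcat3 livers, and their summed level was 385 to 547 CPM, against 516 to 891 CPM in eGFP livers (exact permutation p = 0.0857). eGFP replicates 1 and 3 were far above the rest, at 891 and 839 CPM, while eGFP replicates 2 and 4 lay within the Lpcat3 range. All 5 general leukocyte markers were lower, with sums of 75.7 to 129 CPM in Lpcat3 and 116 to 226 CPM in eGFP livers (exact permutation p = 0.114). Kupffer cell markers, lower for 4 of 5, summed to 88.7 to 169 CPM in Lpcat3 and 165 to 206 CPM in eGFP livers (exact permutation p = 0.0571). For neutrophils 3 of 5 markers were lower, with sums of 4.89 to 7.95 CPM in Lpcat3 and 7.3 to 19.6 CPM in eGFP livers (exact permutation p = 0.143), and Ly6g at 0 in some libraries. Dendritic cell markers were lower for 4 of 5, at 12.1 to 22.3 CPM in Lpcat3 and 18.2 to 31.9 CPM in eGFP livers (exact permutation p = 0.2). T and NK cell markers were lower for 4 of 7, at 3.42 to 5.22 CPM in Lpcat3 and 2.77 to 7.77 CPM in eGFP livers (exact permutation p = 0.714). B and plasma cell markers were lower for 5 of 5, at 2.4 to 3.0 CPM in Lpcat3 and 2.65 to 3.92 CPM in eGFP livers (exact permutation p = 0.0857), with Mzb1 at 0 in some libraries. Among the stromal types, the endothelial sum was 261 to 328 CPM in Lpcat3 and 323 to 355 CPM in eGFP livers (5 of 5 lower; exact permutation p = 0.0857), the stellate sum 420 to 640 CPM in Lpcat3 and 510 to 605 CPM in eGFP livers (2 of 5 lower), and the cholangiocyte sum 38.9 to 124 CPM in Lpcat3 and 37.7 to 85.3 CPM in eGFP livers (1 of 5 lower). The smallest exact p that 70 relabellings allow is 0.0286. What part these cells have in the chemokine differences was not tested.

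The relation of each member to the macrophage markers is given member by member, with no test of differences between them. Over the 8 libraries Cxcl16 tracked the summed macrophage level almost exactly (Pearson r = 0.98, permutation p = 0.000198, adjusted p = 0.00396; Spearman rho = 0.98, permutation p = 0.000397, adjusted p = 0.00794). So did Ccl6 (r = 0.96, permutation p = 0.000471, adjusted p = 0.00471; rho = 0.93, permutation p = 0.00223, adjusted p = 0.0223). Without eGFP replicates 1 and 3, which lay farthest from the median, r was 0.97 for Cxcl16 and 0.91 for Ccl6. Ccl9 had r = 0.85 (permutation p = 0.00935, adjusted p = 0.0623) and rho = 0.88 (permutation p = 0.00724, adjusted p = 0.0483), and r = 0.59 without these libraries. For Cxcl1 the relation did not pass over all 8 libraries (r = 0.5, permutation p = 0.208, adjusted p = 0.297; rho = 0.52, permutation p = 0.197, adjusted p = 0.263). eGFP replicate 1 had the most macrophage marker RNA, at 891 CPM, but only 5.81 CPM of Cxcl1, and without the same libraries r was 0.8. Ccr2 had r = 0.7 (permutation p = 0.0444, adjusted p = 0.124) and rho = 0.76 (permutation p = 0.0368, adjusted p = 0.147), and r = 0.61 without them. Cxcl12 ran the other way (r = -0.78, permutation p = 0.0168, adjusted p = 0.0768; rho = -0.86, permutation p = 0.0107, adjusted p = 0.0535), with r = -0.59 without them. These 20 relations, of the members at 1 CPM or more, were chosen after the values were seen, and the code divisions of 4 libraries are too small to repeat them. They pool both groups, so a difference between the groups also enters r and rho. How many of all genes reach such values was not computed.

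**Figure D5:**
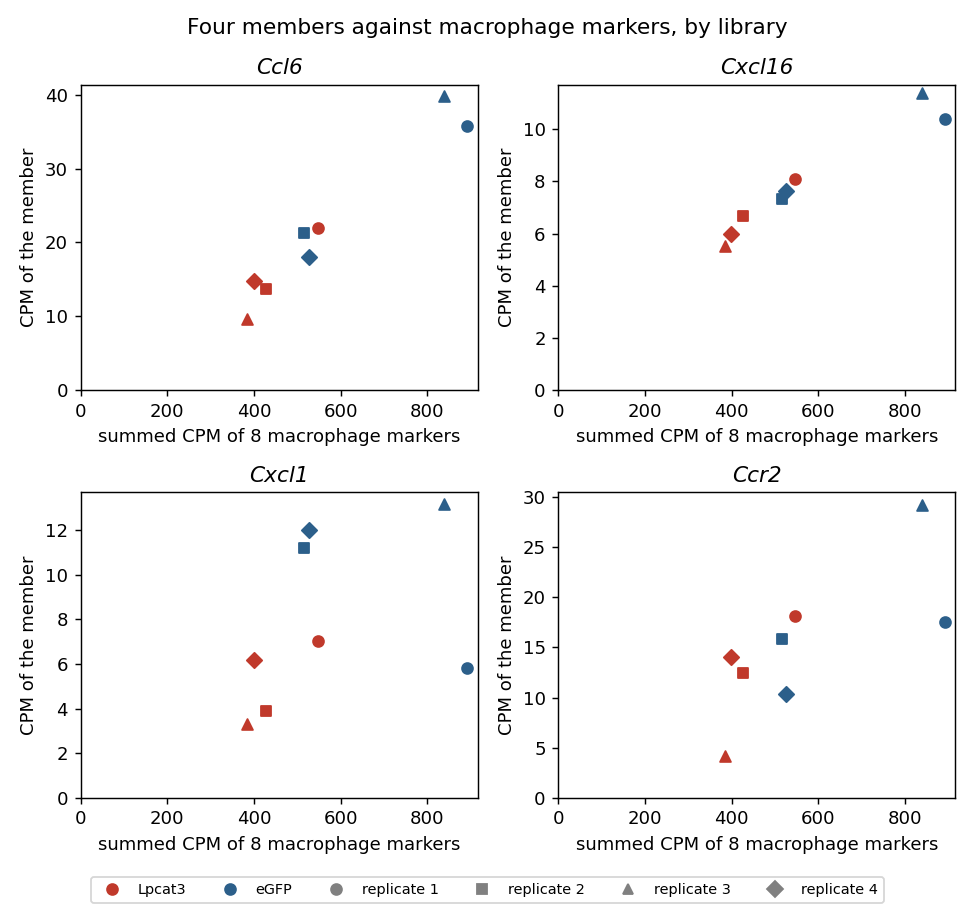
CPM of Ccl6, Cxcl16, Cxcl1 and Ccr2 against the summed CPM of 8 macrophage markers in each Lpcat3 (red) and eGFP (blue) library, with a symbol for each replicate number. Cxcl16 and Ccl6 are higher where the marker sum, 385 to 891 CPM, is higher, while eGFP replicate 1 (circle) lies low for Cxcl1 at 5.81 CPM.

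The marker sum itself differed by -0.62 on the log2 scale, so scaling a gene to it adds that amount to the gene's difference. The log2 ratio to the sum was higher in Lpcat3 livers for 16 of the 20 members at 1 CPM or more, with a median difference of 0.26. Over 15082 tested genes at 1 CPM or more and above 0 in every library, 97.3% had a higher ratio, with a median of 0.62. The members with a lower ratio were Ccl2 (-0.49), Cxcl1 (-0.43), Ccl6 (-0.3) and Ccr2 (-0.04). None of the 20 ratios passed a two-sided exact permutation test after adjustment (lowest adjusted p = 0.381). The ratio of Cxcl16 varied least, with a log2 SD of 0.05 in Lpcat3 and 0.14 in eGFP livers and a difference of 0.15 (exact permutation p = 0.0571).

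Some members also moved together from library to library. Ccl3 and Ccl4, neighbours on chromosome 11, had r = 0.96 (permutation p = 7.44e-05, adjusted p = 0.000446) and rho = 0.98 (permutation p = 0.000397, adjusted p = 0.00238), and r = 0.91 without the libraries numbered 3. The monocyte receptors Ccr2 and Cx3cr1 had r = 0.95 (permutation p = 0.000347, adjusted p = 0.00104) and rho = 0.88 (permutation p = 0.00724, adjusted p = 0.0145), and r = 0.89 without these 2 libraries. Ccl2 and Ccl7 had r = 0.9 (permutation p = 0.00511, adjusted p = 0.0102) and rho = 0.9 (permutation p = 0.00456, adjusted p = 0.0137), which dropped to r = 0.56 without them, so this relation rests partly on them. Ccl2 and its receptor gene Ccr2 had r = 0.83 (permutation p = 0.0256, adjusted p = 0.0307) and rho = 0.83 (permutation p = 0.0154, adjusted p = 0.0231), and r = 0.63 without them. Cxcl9 and Cxcl10 had r = 0.8 (permutation p = 0.0193, adjusted p = 0.029) and rho = 0.71 (permutation p = 0.0576, adjusted p = 0.0576), and r = 0.86 without Lpcat3 replicate 3 and eGFP replicate 1. Cxcl12 and Cxcr4 had r = -0.64 (permutation p = 0.0973, adjusted p = 0.0973) and rho = -0.81 (permutation p = 0.0218, adjusted p = 0.0262), and r = -0.57 without the libraries numbered 3. These 6 pairs were chosen after the values were seen, and each correlation is over 8 libraries. Both groups are pooled in them, and how many pairs of other genes reach such values was not computed.

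The rest of the chemokine family gave 0 calls as well. Of 33 further ligand and receptor genes listed, 32 were found and 15 were tested, with 12 at a negative and 3 at a positive log2 fold change (median -0.13). Among all tested genes 51.5% were negative. The chemerin receptor gene Cmklr1 was at 8.42 ± 1.53 CPM in Lpcat3 and 10.7 ± 1.84 CPM in eGFP livers (SD, n = 4 each; log2 fold change -0.35). Cxcl11, the third CXCR3 ligand, was at 1.7 ± 0.401 CPM in Lpcat3 and 1.96 ± 0.464 CPM in eGFP livers (log2 fold change -0.2). Ccl21a, which has near-identical copies and is therefore uncertain, was at 1.25 ± 0.715 CPM in Lpcat3 and 1.03 ± 0.396 CPM in eGFP livers (log2 fold change 0.29, from -0.19 to 0.54 over the alternatives).

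A fixed list of genes that carry, limit or modify chemokine signals or induce chemokines also gave 0 calls in edgeR and 0 in DESeq2. Of 27 listed, 25 were tested, 24 with a negative log2 fold change and 1 positive (median -0.44), beside 51.5% of all tested genes negative. At an unadjusted p under 0.05 in edgeR, 11 were lower, beside 5.18% of all tested genes. That count was 7 without eGFP replicate 3 (3.22% of all tested genes) and 5 without both libraries numbered 3 (2.88%). It was 2 with a term for code division (2.41%) and 1 with a term for each code (1.61%). Rac2, the leukocyte GTPase of cell migration, was at 6.19 ± 1.04 CPM in Lpcat3 and 11.6 ± 4.47 CPM in eGFP livers (SD, n = 4 each; log2 fold change -0.91, SE 0.27). Vav1, its exchange factor, was at 4.61 ± 1.47 CPM in Lpcat3 and 8.79 ± 2.79 CPM in eGFP livers (-0.93, SE 0.28). Pik3cg, the G-protein-activated phosphoinositide kinase, was at 4.31 ± 1.13 CPM in Lpcat3 and 7.11 ± 1.67 CPM in eGFP livers (-0.72, SE 0.23). The edgeR adjusted p was 0.564 for each of these 3 genes, and several of the listed genes are themselves leukocyte-restricted, as the marker lists above are.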

How the data were processed

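The authors deposited raw counts, whole numbers of reads per NCBI gene number and library, without normalization. The submitters' processing notes name bcl2fastq 2.20, DESeq2 and GRCm39, while aligner, counter and strand handling were not given in the sources used here. In GENCODE M21 the exons of Ackr4, Ccl25, Cx3cr1 and Cxcl16 overlap an opposite-strand gene, so their counts are uncertain. Columns were joined to samples by title codes (0 columns left over). Symbols came from a RefSeq GRCm38 table, for 39397 rows with 99.5% of counts.

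Genes were filtered with filterByExpr (minimum count 10; 17438 left) and fitted with edgeR 4.0.16 (R 4.3.3; TMM, robust glmQLFit, glmQLFTest), with group as the only term and two-sided Benjamini-Hochberg adjusted p-values called at 0.05. SEs were derived from the same fit. Log2 CPM used a prior count of 2, and the exact permutation tests are two-sided. Alternatives included DESeq2 1.42.0 and limma-voom (limma 3.58.1). In 5 simulations of this comparison on 17438 genes edgeR called 95.2% of genes raised 4-fold, 67.2% of those raised 2-fold, 62% of those at 0.5 of their level and 31.6% of those raised 1.5-fold, and 6.7% of all calls were unchanged genes. Simulated counts were drawn separately for each gene, without the variation that genes share between libraries here. The shares called may therefore be too high for the data. Libraries differed by at least 9.3 times the sampling noise (chi-square per degree of freedom). Depth limits genes of few reads. Genes with values in every library are the 10 members of at least 1 CPM with the smallest p and 5 ligand-receptor axes, and from other lists up to 4 genes by p, some of which are not reported here. Members, lists and rules were chosen with earlier results of these data known.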

Additional observations from a re-analysis of the deposited data

Results flagged for a closer look

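A value far from the other 3 of its group was looked for in the 60 sets of 4 libraries (30 members in 2 groups), where chance gives about 1 in 20. It was found 4 times, near that rate, each time with eGFP replicate 3 as the high library. These were Ccl2 at 8.34 CPM, Cxcl14 at 11.8 CPM, Ccr1 at 2.34 CPM and Cxcr3 at 0.779 CPM. The Cxcr3 value is 21 reads, and that gene did not pass the filter. How many of all genes show such a value was not computed, and eGFP replicate 3 held the highest CPM for 22.4% of all tested genes. The same library had macrophage markers at 839 CPM and neutrophil markers at 19.6 CPM in sum, and what part these have in the 4 values was not tested. No Lpcat3 library was found this way, since Lpcat3 replicate 3 did not reach the limit (0 cases).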

How the results depend on the processing

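Under 19 alternatives 0 members were called, with a lowest adjusted p of 0.121. Of the 27 tested members 11 kept their sign and 16 did not in at least 1 alternative, and the cause was not tested. Genes called higher among all tested genes numbered 1, and 27 in DESeq2, 3 with library totals, 2 without robust estimation, and 0 with no filter, code division, each code number, the replicate block or both libraries numbered 3 left out. Leaving out 1 library gave 0 to 7. Genes called lower numbered 0, and 21 in DESeq2. Negative members numbered 23, falling to 15 of 27 with a term for each code, where 52.3% of all genes were negative. With that term the median log2 difference of the 30 members was -0.07 in place of -0.39. In that fit only the libraries of codes 1290 and 1345 compare the groups.

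Log2 fold changes of the other sign were as follows. With each code number they were 0.31 for Ackr3, -0.27 for Ackr4, 0.09 for Ccl2, 0.51 for Ccl22, 0.03 for Ccl3, 0.07 for Ccl7, 0.71 for Ccr1, 0.25 for Ccr2, 0.19 for Ccr7, 0.37 for Cx3cr1, -0.1 for Cxcl12, 0.2 for Cxcl14, -0.33 for Cxcl9 and 0.46 for Cxcr4. With code division they were 0.05 for Ackr3, -0.16 for Ackr4, 0.23 for Ccl22, 0.18 for Ccr7, 0.08 for Cx3cr1 and 0.46 for Cxcr4. Without both libraries numbered 3 they were 0.29 for Ackr3, -0.12 for Ackr4, 0.46 for Ccl22, 0.55 for Ccr1, 0.03 for Ccr2, 0.11 for Cx3cr1, 0.26 for Cxcl14, -0.46 for Cxcl9 and 0.27 for Cxcr4. Library totals gave -0.09 for Ackr4, -0.09 for Cx3cl1 and -0.07 for Cxcl9, and limma-voom gave -0.32 for Cxcl9 and 0.04 for Cxcr4. Leaving out 1 library gave ranges of -0.42 to 0.14 for Ackr3, -0.07 to 0.13 for Ackr4, -0.6 to 0.14 for Ccl22, -0.66 to 0.01 for Ccl24, -0.94 to 0.22 for Ccr1, -0.8 to 0.08 for Ccr7, -0.14 to 0.2 for Cx3cl1, -0.74 to 0.01 for Cxcl14, -0.58 to 0.36 for Cxcl9 and -0.28 to 0.13 for Cxcr4.

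Whether the replicate numbers pair the libraries is not stated in the labels. Deviations of same-numbered libraries correlated at 0.285, -0.069, -0.4 and -0.124. Differently numbered libraries were not compared in this way, so these values cannot decide it. With the replicate block 0 members were called, 23 were negative, Cxcl9 was at -0.06 and Cxcr4 at 0.02. Depth limits the 10 members under 1 CPM.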
